A study of Mus musculus with 98 samples.

Results

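The CD3 chains and the adaptors and kinases around them are described here across single innate lymphoid cells of the mouse gut. The 10 genes, of 23420 in the deposited tables, are the CD3 chain genes Cd3g, Cd3d, Cd3e and Cd247, the adaptor genes Fcer1g and Tyrobp, the kinase genes Lck, Zap70 and Syk, and Lat. They were chosen by name around Cd3g. Cd3g itself was chosen from its measured values, a higher mean in R9 with a similar share of cells in both groups, so the ratios of R9 over WT below are a description and are not tested. Each library is 1 cell. The R9-ILCs are regenerated cells, sorted as CD45.2+GFP+Lin-CD127+ from the intestine of Rag2-/-Il2rg-/- recipients 3 weeks after transplantation. The WT-ILCs are CD45.2+Lin-CD127+ cells of 8-week-old wild-type C57BL/6 mice, also from the intestine. The strain label is C57BL/6 for both groups, both are of the CD45.2 and CD127 gate, and the antibodies behind the lineage gate are not given in the sources used here. The recipients lack lymphocytes that need Rag2 or Il2rg, and R9 and WT cells therefore also differ in their host.

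The R9 titles form a series with the ending 1 (35 cells) and a series without an ending (32 cells). The labels do not say what the endings mean, so they were handled as a possible batch. The 31 WT columns gave 22 cells after near-identical columns were averaged. Values are TPM, a level corrected for transcript length that sums to 1000000 in every column. No animal is named, so each group counts as 1 sample and has no replicate check. SDs are spreads over cells, intervals are exact Clopper-Pearson 95% intervals that cover counting error only, and a gene counts as detected at 1 TPM or more.

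CD3γ, CD3δ, CD3ε and CD3ζ (Cd247) carry the antigen receptor of T cells to the surface and signal for it through immunoreceptor tyrosine-based activation motifs, ITAMs. Lck phosphorylates these motifs, Zap70 or its relative Syk binds them, and the membrane scaffold Lat passes the signal on. Innate lymphoid cells have no rearranged antigen receptor, and natural killer cells and other innate cells couple their activating receptors instead to FcRγ (Fcer1g), DAP12 (Tyrobp) or CD3ζ.

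Cd3g, Cd3d and Cd3e form a cluster on chromosome 9 (GRCm38). Cd3g spans 44969572 to 44980431 on the minus strand and Cd3d spans 44981786 to 44987339 on the plus strand, so that they point away from each other with 1355 bases between their starts. Cd3e lies at 44998740 to 45009627 on the minus strand. Fcer1g lies on chromosome 1 at 171229572 to 171234365 on the minus strand. The 250 bases before the RefSeq start (build GRCm38.p6, each in the direction of its gene) are printed for Cd3g and Cd3d, neighbours of which only Cd3g was often detected, and for Fcer1g, the member detected in most cells. Capitals mark a match to 1 of 5 motifs searched on both strands, which are TGTGGT for RUNX factors, AGGAAG for ETS factors, AGATAA for GATA factors, CAGCTG for an E box and TATAAA for a TATA box.
Cd3g (chr9:44980432-44980681, minus strand): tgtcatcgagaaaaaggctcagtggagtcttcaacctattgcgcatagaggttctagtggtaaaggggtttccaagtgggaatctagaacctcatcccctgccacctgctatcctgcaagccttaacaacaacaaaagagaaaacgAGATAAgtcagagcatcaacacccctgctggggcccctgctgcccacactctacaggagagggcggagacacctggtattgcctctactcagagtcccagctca
Cd3d (chr9:44981536-44981785, plus strand): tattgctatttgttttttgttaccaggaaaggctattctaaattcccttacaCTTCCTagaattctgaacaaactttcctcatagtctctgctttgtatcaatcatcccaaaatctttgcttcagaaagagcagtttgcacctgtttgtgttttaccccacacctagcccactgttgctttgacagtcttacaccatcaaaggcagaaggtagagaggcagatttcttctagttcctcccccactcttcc
Fcer1g (chr1:171234350-171234599, minus strand): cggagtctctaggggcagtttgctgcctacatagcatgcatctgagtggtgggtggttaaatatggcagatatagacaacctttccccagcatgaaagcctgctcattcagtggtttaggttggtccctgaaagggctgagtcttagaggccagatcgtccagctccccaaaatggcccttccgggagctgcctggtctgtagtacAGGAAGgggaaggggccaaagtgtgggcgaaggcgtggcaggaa
The Cd3g window holds a GATA match 104 bases before the start, which 9.99% of all 32851 windows of this length also hold. The Cd3d window holds an ETS match on its minus strand, 198 bases before the start, and the Fcer1g window holds one 44 bases before it, as do 29.5% of all windows. RUNX matches occur in 14%, E boxes in 13% and TATA matches in 12.4% of all windows, and none of these 3 lies in the windows printed. A match is a run of letters and was not tested as a binding site. RefSeq windows were found for 9 of the 10 genes, all but Tyrobp.

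A few facts of the libraries bear on every value. A median of 2429 genes (range 1913 to 6042) reached 1 TPM in R9 cells of ending 1, 2082.5 (1187 to 2989) in R9 cells without an ending and 2092.5 (793 to 7518) in WT cells. At least 10% of all TPM belonged to 1 gene in 1 of 35, 26 of 32 and 5 of 22 cells of these sets, and Gapdh, which every cell uses, was listed at 0 in 1, 24 and 9 of them, so a zero is given here as listed at 0 and not as absent. Of all values at 1 TPM or more, 36.2% lay under 10 TPM in R9 cells of ending 1, as did 10.6% without an ending and 34.4% in WT cells. Low values were thus rarer in the series without an ending, which touches each detection share at 1 TPM. Il7r, which encodes the CD127 of the sort gate, was detected in every cell of the 3 sets (35, 32 and 22), and Il23r, an ILC3 marker, in 33, 27 and 20. The mast cell markers (10 genes with Tpsb2, Cpa3 and Cma1) summed to a median of 0 TPM in R9 cells of ending 1, 1349 TPM in R9 cells without an ending and 0 TPM in WT cells. Of these markers, Mcpt2 and Ms4a2 were listed at 0 in every cell, and Mcpt1 and Hdc were detected only in ending 1, in 1 cell each. The 12 epithelial markers summed to a median of 51.1 TPM (range 0.75 to 13773), 740.7 TPM (0 to 435758) and 7586 TPM (15.5 to 101163) in these sets. The fatty acid binding protein gene Fabp2 averaged 465.1 TPM in R9 and 13137 TPM in WT, and 8 of the 12 markers had a lower mean in R9. Fabp1 (16126 TPM in R9 and 9154 TPM in WT), Krt8, Krt19 and Vil1 had a higher mean in R9. Without the highest cell of each group, the log2 ratio of R9 over WT was 0.66 for Fabp1. It turned to -0.98 for Krt8, -2.65 for Krt19 and -2.04 for Vil1, while Krt18 turned from -3.22 to 0.54. The part of epithelial transcripts in the ratios of R9 over WT was not tested.

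Cd3g was the only CD3 chain detected in a large share of cells. It reached 1 TPM in 34 of the 67 R9 cells, a share of 50.7% (interval 38.2 to 63.2), and in 11 of the 22 WT cells, a share of 50% (28.2 to 71.8). Cd3g ranged from 0 to 6165 TPM with a median of 3.55 TPM in R9 cells of ending 1, from 0 to 201.2 TPM with a median of 0 TPM in R9 cells without an ending, and from 0 to 117.2 TPM with a median of 0.74 TPM in WT cells. The groups overlap at 0 and at low values, and the cells above 201.2 TPM are all R9 cells of ending 1. Cd3g averaged 429.8 ± 1244.6 TPM in R9 cells (SD, n = 67 cells), and 13.6 ± 27.6 TPM in WT cells (SD, n = 22 cells). The log2 ratio of these means, each plus 1 TPM, was 4.89, a level set across separately normalized tables. It was 5.77 for the series of ending 1 and 1.26 for the series without an ending.

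The detected Cd3g values of R9 cells of ending 1 fell into 2 ranges with nothing between them. In 16 cells Cd3g lay between 1.01 and 12.1 TPM, and in 9 cells it lay between 636.0 and 6165 TPM. Those 9 cells, with a median of 2690 TPM, held 96.0% of all Cd3g TPM summed over the 67 R9 cells. In the series without an ending 1 cell stood at 16.6 TPM and the other 8 detected cells at 56.6 to 201.2 TPM. In WT, 5 cells lay at 1.47 to 3.46 TPM and 6 cells at 20.8 to 117.2 TPM.

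At a limit of 10 TPM the shares of cells with Cd3g came close together. They were 28.6% (interval 14.6 to 46.3) in R9 cells of ending 1, 28.1% (13.7 to 46.7) in R9 cells without an ending and 27.3% (10.7 to 50.2) in WT cells. At 100 TPM, 9, 6 and 1 cells remained. The difference of means between R9 and WT therefore came with a level difference among the cells above 10 TPM rather than with more such cells, although intervals this wide also allow unequal shares. On the mean of log2(TPM + 1), which weights each cell equally, Cd3g differed by 1.10 between R9 and WT, by 2.09 between ending 1 and WT and by 0.02 between no ending and WT, so on this scale the difference lay in the series of ending 1.

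The WT title endings also differed. Cd3g was listed at 0 in all 9 WT columns of ending 1, and reached 1 TPM in 11 of the 21 columns of ending 2. The columns of ending 1 had a median of 1144 genes, against 2161 in those of ending 2, and the part of this in the Cd3g values was not tested. Most columns of ending 1 were joined with one of ending 2 as 1 cell, so these sets are not separate cells. Within each such pair the column of ending 2 had more genes. Cd3g was seen in 3 of the joined cells, each time only in the column of ending 2.

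**Figure D1:**
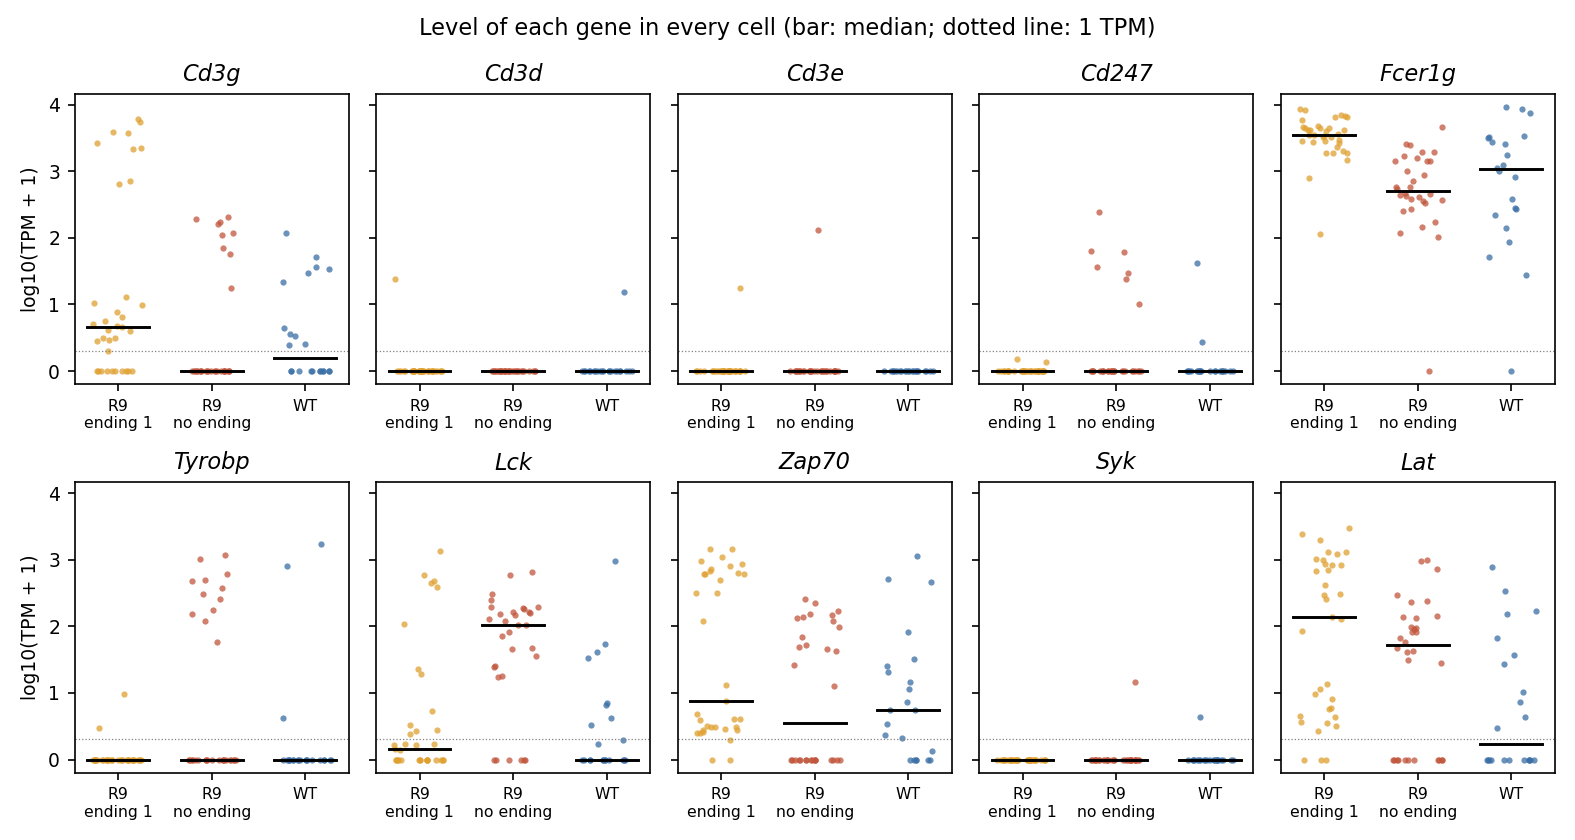
Level of each of the 10 genes in every cell as log10(TPM + 1), with R9 cells of ending 1, R9 cells without an ending and WT cells from left to right, a bar at the median and a dotted line at 1 TPM. Detected Cd3g of ending 1 splits into 16 cells at or below 12.1 TPM and 9 cells at or above 636.0 TPM. Middle values were sparse over all genes of that series. Fcer1g is high in nearly every cell.

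The other CD3 chains were detected in few cells. Cd3d was found in 1 R9 cell of ending 1 (23.2 TPM), in no R9 cell without an ending and in 1 WT cell (14.6 TPM). Cd3e was found in 1 R9 cell of ending 1 (16.6 TPM), in 1 R9 cell without an ending (128.2 TPM) and in no WT cell, so no fold over WT is given for it. The 2 detected R9 cells make 3.0% of 67 (interval 0.36 to 10.4), and 0 of 22 WT cells allows up to 15.4%. Cd3e shares exon positions with the antisense gene Gm48719, and whether strand was used in counting is not given in the sources used here.

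Cd247 followed the title series. It was detected in 0 of 35 R9 cells of ending 1, in 7 of 32 without an ending (21.9%, interval 9.28 to 39.97) and in 2 of 22 WT cells (9.09%, 1.12 to 29.2). The 7 values ran from 9.10 to 242.8 TPM with a median of 34.8 TPM, the 2 WT values were 1.75 and 40.6 TPM, and 2 cells of ending 1 held 0.51 and 0.35 TPM. The series without an ending held 99.8% of the Cd247 TPM of R9, and the log2 ratio over WT was -1.51 for ending 1 and 2.39 for no ending. A single WT cell held 95.9% of the WT sum, and without the highest cells these ratios were -0.10 and 2.89. Cd247 overlaps exons of Pou2f1 on the opposite strand, so reads of that gene cannot be told apart from its own if strand was not used.

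Cd3g was rarely accompanied by another chain, where the other chains were detected in few cells of any kind. Cd3g with no other CD3 chain was seen in 23 of 35 R9 cells of ending 1, 7 of 32 without an ending and 9 of 22 WT cells. Cd3g with another chain was seen in 2, 2 and 2 cells of these sets. With or without Cd3g, another chain was detected in 2 of 35 R9 cells of ending 1 and 8 of 32 without an ending. Joint detection was thus bound to be rare, and these counts are no sign that Cd3g was expressed alone. No cell of either group held 3 or 4 of the CD3 chains, where 0 of 67 R9 cells allows up to 5.36% and 0 of 22 WT cells up to 15.4%. Cd3g at 100 TPM or more with every other CD3 chain under 1 TPM was seen in 12 R9 cells, 17.9% of the 67 (interval 9.61 to 29.2), and in 0 of the 22 WT cells, which allows up to 15.4%. The R9 cell with the second highest Cd3g value also held the Cd3e value of 16.6 TPM, and the WT cell with the highest Cd3g value (117.2 TPM) held Cd3d at 14.6 TPM.

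T cell markers were checked beside these counts. Of 12 markers 8 were in the tables, and Cd8a, Cd8b1, Cd5, Cd6, Cd28 and Themis were listed at 0 in every cell of all 3 sets. Cd4 was detected in 0 R9 cells of ending 1, 3 without an ending and 6 WT cells, and Lef1 in 1, 2 and 1 cells. The measured markers summed to a median of 0 TPM in each set, with highest sums of 236.1 TPM in R9 cells of ending 1, 66.7 TPM in R9 cells without an ending and 144.3 TPM in WT cells. None of the 12 names searched for constant regions of the antigen receptors was in the tables, so these genes could not be measured. The T cell markers missing from the tables are Trac, Trbc1, Trbc2 and Trdc, so the check holds no T cell receptor gene.

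**Figure D2:**
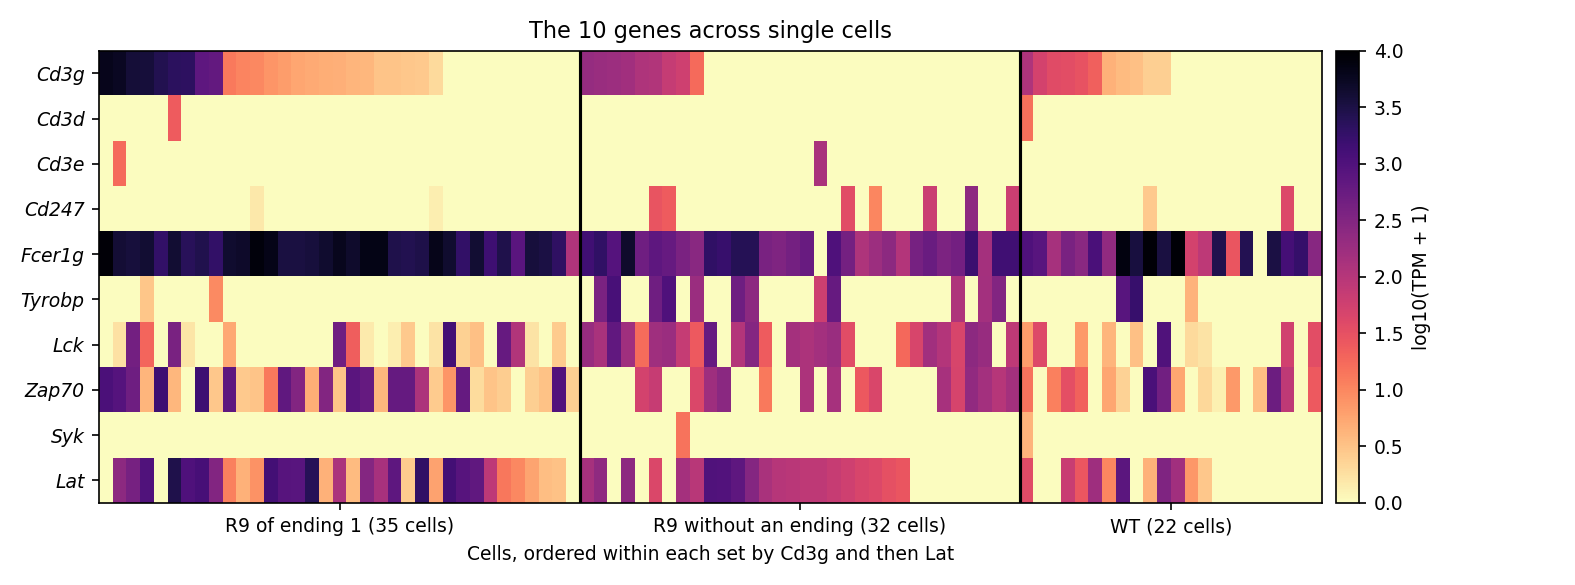
Log10(TPM + 1) of the 10 genes (rows) in each cell (columns), for R9 cells of ending 1, R9 cells without an ending and WT cells from left to right, ordered within each set by Cd3g and then Lat. The Fcer1g row is dark almost throughout, the Cd3d, Cd3e and Syk rows are nearly empty, and the Cd247 and Tyrobp rows fill mainly in the series without an ending.

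Fcer1g, the FcRγ adaptor that was first known from Fc receptors, was the most widely detected of the 10 genes. It was detected in all 35 R9 cells of ending 1, 31 of 32 without an ending and 21 of the 22 WT cells, and in all but 3 of these WT cells, as in every detected R9 cell, it was above 100 TPM. Fcer1g ranged from 112.2 to 8678 TPM with a median of 3543 TPM in R9 cells of ending 1, from 0 to 4616 TPM with a median of 510.3 TPM in those without an ending, and from 0 to 9278 TPM with a median of 1062 TPM in WT cells. The WT range covers both R9 ranges. Fcer1g averaged 2470 ± 2161 TPM in R9 cells (SD, n = 67 cells) and 2187 ± 2829 TPM in WT cells (SD, n = 22 cells), a log2 ratio of 0.18. The ratio was 0.82 for ending 1 and -1.22 for no ending, where the medians of all genes were 0.94 and -0.67, so the series differed in Fcer1g in the direction of all genes. After each cell was rescaled on 431 commonly detected genes, the ratio of Fcer1g was -0.33, and its direction between R9 and WT is not fixed.

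Every cell with Cd3g also had Fcer1g, in 25 R9 cells of ending 1, 9 without an ending and 11 WT cells. Since Fcer1g was seen in 87 of 89 cells, this overlap follows from its near-universal detection and is no sign of a link. Fcer1g without Cd3g was seen in 10, 22 and 10 cells of the 3 sets.

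Tyrobp, the DAP12 adaptor of natural killer and myeloid receptors, was detected mainly in the R9 series without an ending. It was detected in 2 of 35 R9 cells of ending 1 (5.71%, interval 0.70 to 19.2), 12 of 32 without an ending (37.5%, 21.1 to 56.3) and 3 of 22 WT cells (13.6%, 2.91 to 34.9). The 2 values of ending 1 were 8.62 and 1.98 TPM. The 12 values of the other series ran from 57.9 to 1188 TPM with a median of 339.8 TPM. The 3 WT values were 1708, 809.8 and 3.23 TPM, so 2 WT cells lay within or above the range of the R9 cells. The log2 ratio over WT was -0.55 in R9 as a whole, -6.47 for ending 1 and 0.51 for no ending, and without the highest cell of each group the first of these turned to 0.65.

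Some myeloid and mast cell transcripts moved with Tyrobp across the title series. The lysozyme gene Lyz2 was detected in 10 of 35 R9 cells of ending 1, 31 of 32 without an ending and 7 of the 22 WT cells, and the complement gene C1qc in 1, 17 and 6 cells. Not every marker of that list followed, as Cd14 was detected in 2, 0 and 0 cells and Cd68 in 4, 5 and 0. The remaining markers detected in R9 were in more cells without an ending than of ending 1. The 11 measured macrophage and dendritic markers summed to a median of 0 TPM in R9 cells of ending 1 (range 0 to 1874), 444.5 TPM in R9 cells without an ending (39.99 to 3944) and 1.49 TPM in WT cells (0 to 4834), with Itgax listed at 0 in every R9 cell. Of the 12 Tyrobp-positive cells without an ending, all 12 had Lyz2 and the mast cell protease gene Tpsb2, and 7 had C1qc, but 31 of the 32 cells of that series had Lyz2 and 31 had Tpsb2. In WT, 2 cells had Tyrobp with Lyz2 and 2 had it with C1qc. The part of these transcripts in the Tyrobp values was not tested.

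The 3 kinases had different patterns. Lck, the Src family kinase that starts the cascade, was detected in 13 of 35 R9 cells of ending 1 (37.1%, interval 21.5 to 55.1), 26 of 32 without an ending (81.2%, 63.6 to 92.8) and 8 of 22 WT cells (36.4%, 17.2 to 59.3). Lck ranged from 0 to 1326 TPM (median 0.44 TPM) in R9 cells of ending 1, from 0 to 663.4 TPM (median 103.3 TPM) in those without an ending and from 0 to 967.8 TPM (median 0 TPM) in WT cells. The cells without an ending were thus typically higher, while single cells of the other sets reached further. The series without an ending held 55.0% of the Lck TPM of R9.

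The ratio of Lck over WT turned on 1 cell. Lck averaged 112.2 ± 217.2 TPM in R9 cells (SD, n = 67 cells) and 50.6 ± 205.4 TPM in WT cells (SD, n = 22 cells), a log2 ratio of 1.13. The highest WT cell held 86.9% of the WT sum, and without the highest cell of each group the ratio was 3.58. That WT cell was also the only WT cell at 100 TPM or more, beside 6 R9 cells of ending 1 and 17 without an ending. The next WT value was 53.9 TPM.

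Zap70, the kinase that binds phosphorylated ITAMs in T and natural killer cells, had the opposite pattern over the R9 series. It was detected in 32 of 35 R9 cells of ending 1 (91.4%, interval 76.9 to 98.2), 16 of 32 without an ending (50%, 31.9 to 68.1) and 15 of 22 WT cells (68.2%, 45.1 to 86.1). At 10 TPM or more the shares were 48.6%, 50% and 40.9%. The excess of ending 1 at the lower limit thus lay in values under 10 TPM. Like Cd3g, Zap70 fell into 2 ranges in ending 1, with 16 cells at 1.49 to 12.1 TPM and 16 cells at 120.5 to 1465 TPM. Middle values were sparse over all genes of that series, as given for Cd3g. Zap70 averaged 201.4 ± 353.5 TPM in R9 cells (SD, n = 67 cells) and 104.5 ± 267.3 TPM in WT cells (SD, n = 22 cells), a log2 ratio of 0.94, with 1.68 for ending 1 and -0.95 for no ending. The highest WT cell held 48.6% of the WT sum, and without the highest cells the ratio for no ending was -0.25. On the mean of log2(TPM + 1) that series differed from WT by 0.09, so no direction is given for it.

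Syk, the relative of Zap70 in B and myeloid cells, was nearly unseen. Its values were 13.6 TPM in 1 R9 cell without an ending and 3.33 TPM in 1 WT cell, and all 35 cells of ending 1 were listed at 0. At least 1 of the 3 kinases was detected in 34 of 35 R9 cells of ending 1, 30 of 32 without an ending and 17 of 22 WT cells. Lck and Zap70 together were detected in 11, 12 and 6 cells of these sets, which are 31.4%, 37.5% and 27.3%. Zap70 without Lck was seen in 21, 4 and 9 cells, and Lck without Zap70 in 2, 14 and 2 cells.

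Lat is the scaffold phosphorylated by Zap70. Its share of cells was 79.1% in R9 (53 of 67, interval 67.4 to 88.1) and 50% in WT (11 of 22, 28.2 to 71.8), and the intervals overlap. Lat ranged from 0 to 2941 TPM (median 136.8 TPM) in R9 cells of ending 1, from 0 to 977.6 TPM (median 51.1 TPM) in those without an ending and from 0 to 775.5 TPM (median 0.97 TPM) in WT cells. The 3 ranges overlap, and the medians of both R9 series lie above that of WT. Lat averaged 348.2 ± 596.2 TPM in R9 cells (SD, n = 67 cells) and 71.9 ± 177.1 TPM in WT cells (SD, n = 22 cells), a log2 ratio of 2.26, with 2.88 for ending 1 and 0.99 for no ending. In ending 1 the values again fell into a low range, 12 cells at 1.68 to 12.6 TPM, and a high range, 20 cells at 83.9 to 2941 TPM. This too is a series in which middle values were sparse over all genes.

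Cd3g, Lck, Zap70 and Lat were all detected in 7 of 35 R9 cells of ending 1, 2 of 32 without an ending and 4 of 22 WT cells. A median of 4 members was detected per cell in each R9 series (ranges 2 to 6 for ending 1 and 2 to 7 for no ending), and 3 (range 1 to 7) in WT cells. Pearson r of log2(TPM + 1) between members detected in enough cells for an estimate ran from -0.20 for Lck with Zap70 to 0.23 for Cd3g with Zap70 over the 35 cells of ending 1. It ran from -0.37 for Cd247 with Lat to 0.31 for Lck with Tyrobp over the 32 cells without an ending, and from -0.01 for Cd3g with Zap70 to 0.35 for Lck with Zap70 over the 22 WT cells. These are descriptions over cells that share a library series, with many values listed at 0.

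**Figure D3:**
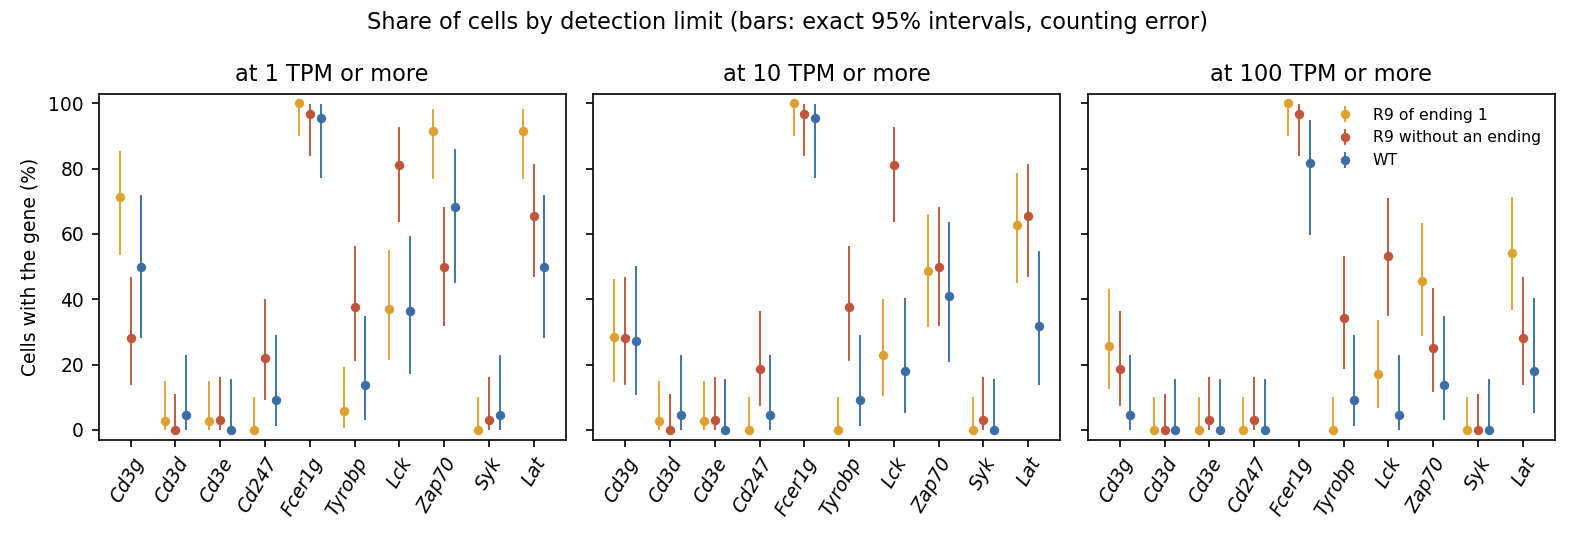
Share of cells (%) with each gene at 1, 10 and 100 TPM or more, for R9 cells of ending 1, R9 cells without an ending and WT cells from left to right within each gene, with exact 95% intervals that cover counting error. The Cd3g shares differ at 1 TPM (71.4%, 28.1% and 50%) and lie together at 10 TPM (28.6%, 28.1% and 27.3%).

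The ratios of the members were set beside those of all genes. Of the 10 members, 5 (Cd3g, Cd3e, Cd247, Lck and Lat) had a log2 ratio of R9 over WT of 1 or more, and 0 had one of -1 or less, where 8 of the 10 passed a mean of 1 TPM in either group. Of the 10691 genes that passed it, 43% were at 1 or more and 21.3% at -1 or less. Cd3e counts among the 5 although it was listed at 0 in WT, so its ratio is no fold, and without the highest cell its ratio was 0.32. The median over all 10 members was 1.04, over the 8 that passed 1.28 and over all genes that passed 0.62. The rule used this contrast, so nothing is read from the count. For ending 1 over WT, 3 members (Cd3g, Zap70 and Lat) were at 1 or more and 2 (Cd247, which rests on 1 WT cell, and Tyrobp) at -1 or less, beside 48.8% and 20.4% of all genes. For no ending over WT, 4 members (Cd3g, Cd3e, which rests on 1 R9 cell, Cd247 and Lck) were at 1 or more and 1 (Fcer1g) at -1 or less, beside 26.6% and 44.5% of all genes. For ending 1 the median was 0.69 over all 10 members and 0.92 over the 7 that passed the mean of 1 TPM, beside 0.94 for all genes that passed. For no ending it was 0.75 over all 10 members and 1.13 over the 8 that passed, beside -0.67. These comparisons share the WT cells.

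Between the R9 series, the sets lie in 1 table. For ending 1 over no ending, 4 members (Cd3g at 4.50, Zap70 at 2.62, Fcer1g at 2.04 and Lat at 1.89) were at 1 or more and 3 (Tyrobp at -6.98, Cd247 at -3.91 and Cd3e at -1.76) at -1 or less, where 64.9% and 16.1% of all genes were. Cd3e was detected in 1 cell of each series, and without the highest cells its ratio was 0. The median over the genes that passed was 1.61, over all 10 members 0.16 and over the 8 members that passed 0.74. Fcer1g and Lat thus lay close to the median of all genes, Cd3g lay at 2.89 and Tyrobp at -8.59 relative to it.

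**Figure D4:**
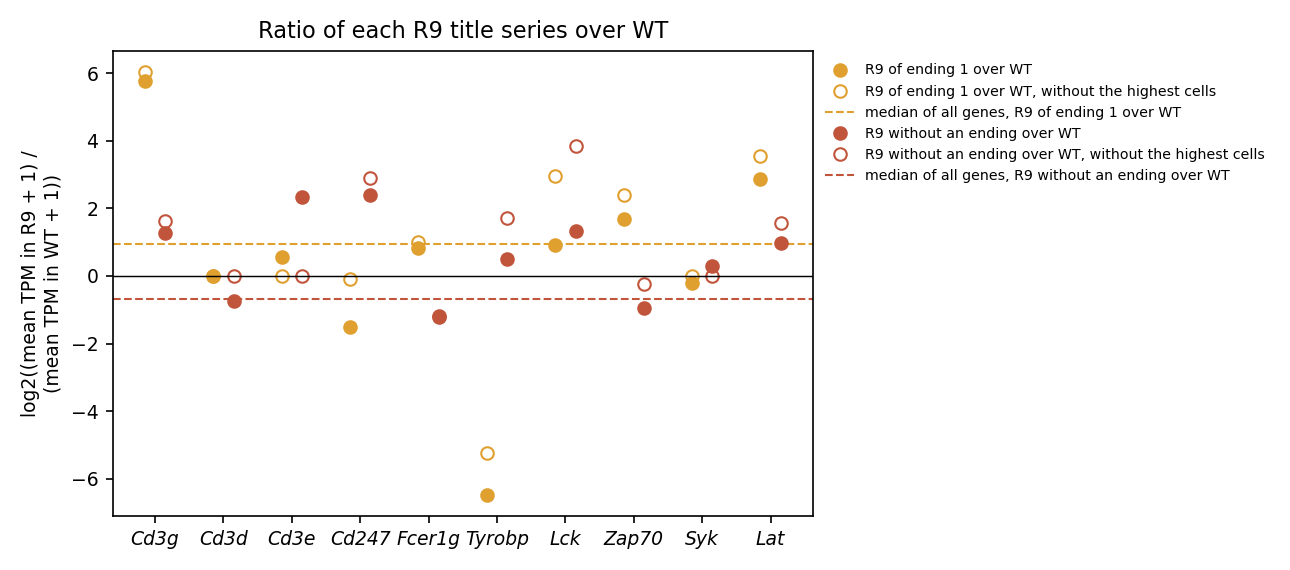
Log2 ratio of mean TPM plus 1 over WT for each gene, for R9 of ending 1 (left point of each pair) and R9 without an ending (right point), with open points for the ratio without the highest cell of each set and dashed lines at the medians of all genes (0.94 and -0.67). Cd3g and Lat lie above their line in both series, and Tyrobp lies at -6.47 and 0.51.

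Detection shares were also set beside all genes. In R9, 5 members (Cd3g, Fcer1g, Lck, Zap70 and Lat) were detected in 50% of cells or more, and in WT 4 were (Cd3g, Fcer1g, Zap70 and Lat). Of all genes with a mean of 1 TPM or more, 14.8% of 9672 in R9 and 17.8% of 8237 in WT were detected that widely. Cd3g was chosen partly by its share of cells in both groups, so its place in both counts is not independent of that choice. The members were also counted without the filter on the mean. Nothing is therefore read from the counts beside these percentages.

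Other genes of the pathway came from 3 lists. Of all genes that passed a mean of 1 TPM, 43% were at 1 or more and 21.3% at -1 or less. Their median was 0.62, with 0.94 for ending 1 and -0.67 for no ending. The list medians also include genes that did not pass this mean, whose ratios lie near 0. Of 20 proximal kinases and phosphatases, 19 passed the mean, 12 had a ratio of R9 over WT of 1 or more and 1 of -1 or less. The median over the 20 was 1.21, with 1.54 for ending 1 and 0.07 for no ending. Ptpn6, the phosphatase SHP-1 that dampens ITAM signals, averaged 475.9 TPM in R9 cells and 205.0 TPM in WT cells (log2 ratio 1.21), and detected in 34 of 35 R9 cells of ending 1, 14 of 32 without an ending and 16 of 22 WT cells. Txk, a Tec family kinase, averaged 241.4 TPM in R9 cells and 104.1 TPM in WT cells (1.21), and was detected in 45 R9 cells and 16 WT cells. Ptprc, which encodes CD45, the phosphatase that activates Lck and a marker of the sort gate, was detected in 19, 32 and 15 cells of the 3 sets, with a ratio of 1.42. Txk and Ptprc had ratios above 0 in both R9 series, while Ptpn6 was at 2.06 for ending 1 and -1.81 for no ending.

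Of 37 adaptors and effectors below the kinases, 26 passed a mean of 1 TPM, 9 were at 1 or more and 4 at -1 or less. The median over all 37 was 0.01. Plcg2, a phospholipase that ITAM receptors activate, had a ratio of 0.79 and was found in 45 of the 67 R9 cells and 14 of the 22 WT cells. Lcp2, the adaptor SLP-76 that joins Lat, was at -0.53 in all and 1.44 without the highest cells, so its direction rested on single cells. Vav1, an exchange factor, was at 0.08 and Pik3cd, a PI3 kinase subunit, at 0.01. Nck1, an adaptor to the cytoskeleton, was at 1.05 with 1.81 for ending 1 and -0.96 for no ending. Bcl10, which links the pathway to NF-κB, averaged 21.9 TPM in R9 and 63.5 TPM in WT (-1.49), with -2.69 for ending 1 and -0.80 for no ending. Its share of cells was 14.3% in ending 1, 53.1% without an ending and 40.9% in WT. The series without an ending thus had a lower mean than WT but a larger share of cells.

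A list of 30 activating receptors and receptor chains also holds the ITAM chains Cd79a and Cd79b and the adaptor Hcst. Of these 30, 29 were in the tables, 10 passed a mean of 1 TPM, 2 were at 1 or more and 4 at -1 or less. The median over the 29 was 0. None of them was detected in 50% of the cells of R9 or WT.

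The genes most like 3 of the members were taken by Pearson r of log2(TPM + 1), centred within each of the 3 sets, over all 89 cells. Fcer1g was most like Itm2b (r = 0.81), Ly6e (0.78) and Tspo (0.72), each detected in 88 or 89 of the cells. Its r with Tspo was 0.48 in ending 1, 0.92 in no ending and 0.60 in WT. Cd3g had only weak likeness, with Capza2 (0.41), Btbd1 (0.39) and Fcgr3 (0.38), and its r with Fcgr3, an Fc receptor gene whose product signals through FcRγ, was 0.61 in ending 1, 0.19 in no ending and 0.26 in WT. Tyrobp was most like Apoe (0.45), H2-Eb1 (0.44) and Uba2 (0.42), each with Tyrobp in 12 cells or fewer. The cells share depth and library series, so these values describe the cells only.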

How the data were processed

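The labels describe single gut innate lymphoid cells, with libraries built by the TruePrep DNA Library Prep Kit V2 from polyA RNA that the Discover-sc WTA Kit V2 had amplified. The tools StringTie 1.3.4, SAMtools 0.1.19, HISAT2 2.1.0 and bcl2fastq and the build mm10 are named per the submitters' processing notes. The authors deposited TPM for 23420 genes in 2 tables, 1 for each group and normalized separately, with 98 columns that each sum to 1000000 TPM. TPM keeps no depth, so the depth per cell is unknown, and genes at 1 TPM or more were the nearest view of it.

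WT columns with Pearson r above 0.8 over genes at 1 TPM or more in both were averaged, which left 22 WT cells, 8 of them from several columns. That such columns are 1 cell is an assumption, and this limit was set with the data in view. It also joined columns whose titles carry different cell numbers, 16 and 32. One WT column lacks its title ending and was left out where endings were compared. Ratios are log2 of mean TPM plus a pseudocount of 1 TPM, which understates low genes, over genes whose mean reached 1 TPM in at least 1 of the compared sets. No p-value was computed, since each group is 1 sample. Doublets were not called, and an alternative dropped the cells above 4000 genes. On simulated cells, most strongly changed genes passed the ratio limit in the direction set. Those cells had no zeros and no gene resting on single cells, so this does not check ratios such as those given here. Analyses used scipy 1.17.1, pandas 2.3.3, numpy 2.4.6 and matplotlib 3.10.9 under Python 3.11.15. Coordinates come from a GRCm38 annotation, the same build as mm10.

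The members, lists and alternatives were chosen with earlier results of these data known. Besides the members, the text names, of each pathway list, up to 6 genes detected in 50% or more of the cells of a set, and the 3 genes most like Cd3g, Fcer1g and Tyrobp, without predicted genes and among genes in 20 cells or more. Some marker genes named beside a result were picked with their values known. The alternatives changed the pseudocount, the mean, the scaling, the filters, the detection limit, the joining of WT columns and the title series. Some genes of the lists are not reported here.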

Additional observations from a re-analysis of the deposited data

How the results depend on the processing

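The log2 ratio of Cd3g over WT was above 0 in all 14 alternatives (1.10 to 8.75, the highest against WT columns of ending 1, where Cd3g and Tyrobp are listed at 0, so that neither highest ratio is a fold), with 2.55 after rescaling on common genes, which moved the median of all genes to 0.17. Lat ran from 0.99 to 3.01, Lck from 0.02 to 3.58, Zap70 from -0.95 to 1.94, Fcer1g from -1.22 to 1.27 and Tyrobp from -6.88 to 6.31. Cd247 turned to -1.51 in the series of ending 1 alone. The 5 members at 1 or more became 3 with a pseudocount of 10 TPM, without cells in which 1 gene holds 10% of TPM, in ending 1 alone and with a mean filter of 10 TPM. The 0 members at -1 or less became 1 without those single-gene cells, 1 in the series without an ending and 2 in ending 1. The members' median of 1.04 became 0.39 with a pseudocount of 10 TPM and 1.80 against WT columns of ending 1.

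Members detected in 50% of cells were 5 in R9, and 3 at 10 TPM and 1 at 100 TPM. In WT they were 4, and 1 at 10 TPM, 1 at 100 TPM and 2 over all 31 columns. Cd3g at the detection limit with every other CD3 chain below that same limit was seen in 44.8% of R9 cells, in 22.4% at 10 TPM, 22.4% at 100 TPM and 60% without single-gene cells, and in 40.9% of WT cells, with 4.55% at 100 TPM. At 100 TPM, 3 of the 15 R9 cells and the 1 WT cell held another chain at 1 TPM or more. Beyond what each alternative changes by construction, the cause was not tested. Of the other values for these results, 48 stayed within their limits, and of those for single genes and shares 195 did and 74 moved. R9 and WT could not be paired, since the numbers in the titles name single cells and no result comes from a test. Joined WT columns of the 2 endings form pairs, but the counts by WT ending treat them as separate columns. Precision is limited by the number of cells, by zeros that can be failed estimates and by the unknown depth.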

Other observations

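The 8 WT cells that joined several columns show how steady each gene was between columns taken as 1 cell. Fcer1g was detected in every column of 7 of them and in none of the other. Zap70 was detected in every column of 4 and in some columns of 1. Lat was in every column of 1 and in some columns of 4, Lck in every column of 1 and in some of 3, and Cd3g in every column of 0 and in some of 3. If these columns are 1 cell each, a listed zero of Cd3g, Lck or Lat in a single column says little about that cell. Lat2, a scaffold related to Lat and known from mast and B cells, was detected in 2 of 35 R9 cells of ending 1, 10 of 32 without an ending and 0 of the 22 WT cells. Of the mast cell markers, Tpsb2, Cpa3, Cma1 and Mcpt4 were likewise detected mainly in the series without an ending, while Mcpt1 and Hdc were not. Lat2 was picked after its values were seen, and the part of mast cell transcripts was not tested.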
